A study of Mus musculus with 36 samples.

Results

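The amino acid deprivation response was followed here through 10 of its genes in single mouse half-embryos. The members were the transcription factors Atf4, Atf3 and Ddit3, the amino acid synthesis enzymes Asns, Psat1 and Phgdh, the feedback and redox genes Trib3, Sesn2 and Chac1, and the lipoprotein receptor gene Vldlr. For each member the array row carrying its symbol was taken, and where several rows carried it, the row with the highest mean over the 36 arrays. Such a row is called a transcript cluster, a group of probes for 1 gene locus. The 10 members stood among 40160 transcript clusters with a gene symbol, and they were chosen with earlier results of these data known.

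Every half-embryo came from a B6C3F1 mother mated with a CD1 father after hormonal stimulation of the mother's cycle. Zygotes were first kept in KSOM(aa), a mouse embryo medium that contains amino acids, until they had 2 cells. The blastomeres were then taken apart and each was cultured alone, without its zona, for another 72 h (about 96 h in all) until it had formed a blastocyst. After the split, 16 half-embryos stayed in KSOM(aa) (embryos 1 to 8, both sisters a and b), 10 were moved to GM501 (sister a of embryos 9 to 18) and 10 to SAGE 1-step (sister b of the same embryos). GM501 and SAGE 1-step are single-step media sold for human assisted reproduction. Each array holds the RNA of 1 whole half-embryo blastocyst. GM501 and SAGE 1-step were therefore compared within embryos, whereas KSOM(aa) was compared with them across different embryos. No intact embryo was analysed here.

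When amino acids run short, uncharged transfer RNAs activate the kinase GCN2, which phosphorylates the translation factor eIF2alpha. Overall protein synthesis falls while the messenger of ATF4 is translated more efficiently. ATF4 then induces genes for amino acid synthesis, uptake and transfer RNA charging, and other stresses reach the same factor through other eIF2alpha kinases. Because ATF4 is controlled largely at translation, its messenger level is an incomplete measure of the factor, and protein was not measured in these samples.

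ATF4 binds together with C/EBP-family proteins at composite elements whose core is searched here as TGATGNAA, where N is any base, on both strands. RefSeq promoter windows (GRCm38.p6, 250 bases before to 50 after each start) were present for all 10 members, 12 windows in all. The core was found in 5 of these 12 windows, in 5 different members, against 3.97% of all 32851 promoter windows. The 5 stretches are shown because they are the places where the members share a sequence that ATF4-type factors can read. The core or its reverse complement is in capitals, each stretch runs 5′ to 3′ on the gene's strand, and the gene's strand is given after the position.
Asns, chr6:7693210-7693272 (-): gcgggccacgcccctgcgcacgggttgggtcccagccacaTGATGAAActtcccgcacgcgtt
Trib3, chr2:152344028-152344057 (-): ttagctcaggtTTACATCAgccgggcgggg
Chac1, chr2:119351009-119351096 (+): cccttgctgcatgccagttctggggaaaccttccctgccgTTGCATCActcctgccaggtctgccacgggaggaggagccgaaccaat
Atf3, chr1:191183396-191183483 (-): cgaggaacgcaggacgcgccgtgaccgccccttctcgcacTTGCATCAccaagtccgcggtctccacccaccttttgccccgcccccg
Vldlr, chr19:27216780-27216867 (+): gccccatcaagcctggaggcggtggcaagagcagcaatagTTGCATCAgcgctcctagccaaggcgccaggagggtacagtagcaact
Atf3, Chac1 and Vldlr carried the same 8 letters, TTGCATCA on the gene's strand, so in these 3 genes the core reads on the opposite strand. Asns carried TGATGAAA, and Trib3 carried TTACATCA shortly after its start. For Vldlr the match lay in the second of its windows. The cAMP response element TGACGTCA, searched the same way, was in none of the 12 windows and in 1.79% of all windows. A match is a description of the letters only, and windows without a match (Atf4, Ddit3, Psat1, Phgdh and Sesn2) say nothing of sites elsewhere.

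All signals below are log2 values as the authors deposited them, ranging from 2.09 to 19.17 over the array. A signal was called above detection when it exceeded that array's 90th percentile over odorant and pheromone receptor genes, which an embryo should not express, a level of 4.55 to 5.49. All 16 KSOM(aa) arrays carried 1 scan series and the 20 other arrays a second one, so the effect of either new medium and that of the scan series cannot be told apart. A group of 12 arrays, those of embryos 9 to 14, differed from the remaining 24. Rn18s, the 18S ribosomal RNA gene, was between 16.15 and 17.65 there and between 17.96 and 18.71 elsewhere. Gapdh was between 13.90 and 15.24 there and between 15.48 and 15.93 elsewhere. Embryos 15 to 18 shared the second scan series with embryos 9 to 14. The split between these embryo sets is not in the labels. It follows the embryo numbers and was made because the arrays differed, so a test between the sets is given as the size of a difference relative to the spread of embryos. Differences from KSOM(aa) are therefore given over all embryos and by set.

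The markers of the blastocyst were present. All 7 trophectoderm and all 7 epiblast markers were detected, and 6 of 7 primitive endoderm markers, with Sox17 above detection in 0 of 36 arrays. Of 7 cumulus and granulosa cell markers, 3 were detected, and Amh, Foxl2, Fshr and Ptx3 were above detection in 0 of 36 arrays. The summed trophectoderm signal (log2) was 18.58 to 18.98 in KSOM(aa), 17.76 to 18.67 in embryos 15 to 18 and 17.04 to 18.08 in embryos 9 to 14. The summed cumulus signal was 7.20 to 7.81, 7.04 to 7.83 and 7.48 to 8.13 in the same order. A lower signal in a whole half-embryo may stand for fewer cells of a type, for less RNA per cell or for a difference between arrays. These cannot be told apart here.

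In KSOM(aa) 9 of the 10 members were expressed. Asns, Ddit3, Atf4, Phgdh, Psat1, Sesn2, Chac1 and Vldlr were above detection in 16 of 16 half-embryos and Trib3 in 14 of 16. Atf3 exceeded the detection level in 5 of 16 KSOM(aa), 4 of 10 GM501 and 1 of 10 SAGE 1-step half-embryos, and its signals stayed between 4.45 and 5.71. The spread within KSOM(aa) differed widely among the members. The SD over 16 half-embryos was 0.19 for Vldlr and 0.31 for Atf4 but 1.31 for Chac1, 1.09 for Asns and 1.02 for Ddit3. Signals of Vldlr lay close to the detection level, where a small SD says little of its expression.

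**Figure D1:**
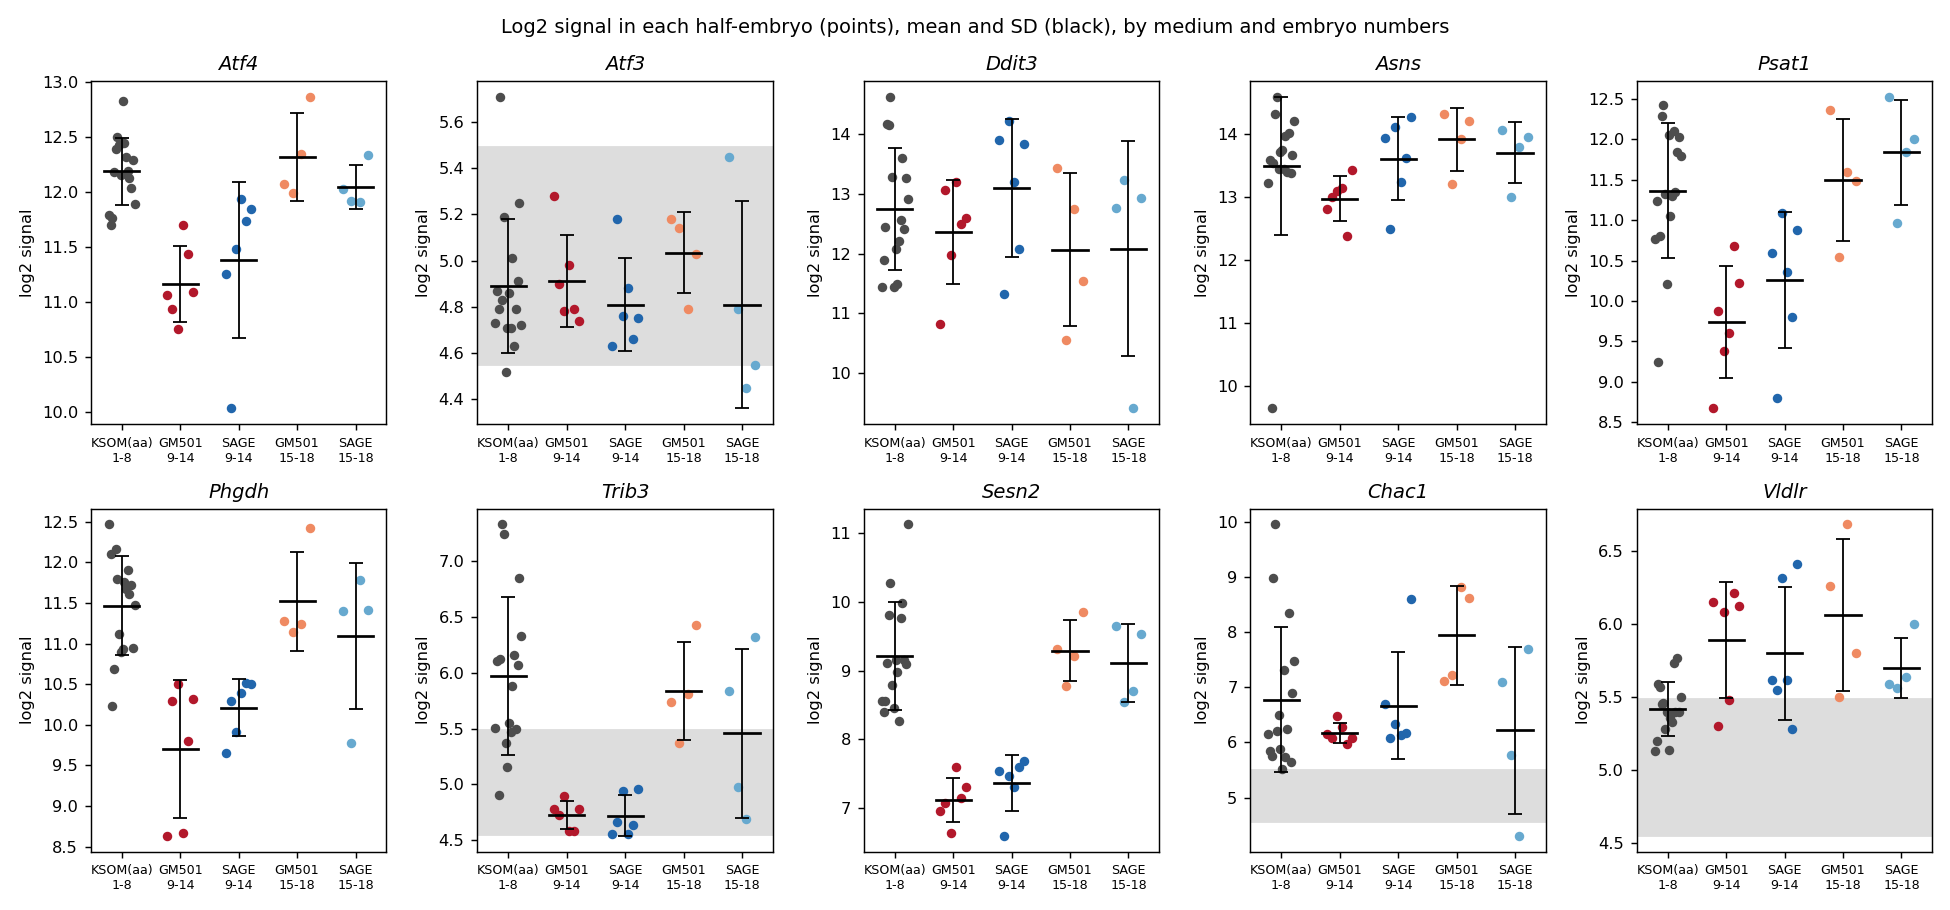
Log2 signal of each of the 10 members (y axis) in the half-embryos of KSOM(aa), GM501 and SAGE 1-step (x axis), 1 point per half-embryo with embryos 9 to 14 and 15 to 18 marked apart. Bars give the mean and SD and the grey band spans the detection levels of the arrays. For Sesn2 the 12 half-embryos of embryos 9 to 14 lie below all others. For Trib3 10 of these 12 lie below all of KSOM(aa), and Asns and Ddit3 overlap across all groups.

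Among the members, 3 were lower and 1 was higher in GM501 than in KSOM(aa), and 2 were lower in SAGE 1-step. The lower members were Sesn2, Phgdh and Trib3 in GM501 and Trib3 and Sesn2 in SAGE 1-step, and the higher one was Vldlr in GM501. The test was limma, with p-values adjusted by Benjamini-Hochberg over all 40160 transcript clusters and a threshold of 0.05. The same test called 7.66% of all clusters for GM501 (4.06% higher, 3.60% lower) and 9.55% for SAGE 1-step (5.13% higher, 4.42% lower). Among the 22770 detected clusters the shares were 6.39% higher and 6.12% lower in GM501, and 7.79% and 7.50% in SAGE 1-step. Among the 6865 of these with a mean signal of 9 or more, a level that 5 of the members exceed, they were 9.42% and 10.7% in GM501 and 9.63% and 13.4% in SAGE 1-step. Of the control genes, Actb (-0.74 and -0.68) and Gapdh (-0.50 and -0.56) were also lower in both media, and their part in the members' differences was not tested. The median log2 difference of the members was -0.54 for GM501, where that of all clusters was 0.09, and -0.38 for SAGE 1-step, where that of all clusters was 0.10. Both comparisons use the same 16 KSOM(aa) half-embryos and are not independent of each other. The labels give the embryo of each half-embryo but no mother or day, so the p-values measure the spread between these half-embryos only. In KSOM(aa) the 16 half-embryos are sisters from 8 embryos, and with the sisters averaged 0 members passed in either medium (5 in GM501 and 4 in SAGE 1-step at an unadjusted p under 0.05). Precision is limited by how many arrays there are.

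Sesn2 encodes Sestrin 2, a leucine-binding inhibitor of mTORC1 signalling. Its signal was 8.27, 9.11 and 11.13 (lowest, median and highest) in the 16 KSOM(aa) half-embryos. In embryos 9 to 14 it was 6.64, 7.11 and 7.60 in GM501 and 6.59, 7.50 and 7.69 in SAGE 1-step. All 12 of these half-embryos lay below all 16 KSOM(aa) half-embryos. The control genes Rn18s and Gapdh did so in 12 of the 12, Actb in 11 and Hprt in 2. For such counts against KSOM(aa), here and below, the share of all clusters was not computed. In embryos 15 to 18 Sesn2 was 9.31, 8.78, 9.22 and 9.86 in GM501 and 9.65, 8.54, 8.70 and 9.54 in SAGE 1-step. These 8 half-embryos all lay inside the KSOM(aa) range. Over all embryos Sesn2 was lower by 1.23 in GM501 (log2 difference -1.23, SE 0.37, limma adjusted p = 0.0365) and by 1.16 in SAGE 1-step (-1.16, SE 0.37, adjusted p = 0.0434). With embryos 15 to 18 alone the GM501 difference was 0.07 (95% interval -0.72 to 0.87, adjusted p = 0.920) and the SAGE 1-step difference -0.11 (adjusted p = 0.924).

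Trib3 encodes a pseudokinase that ATF4 induces and that damps ATF4 in turn. Its signal in KSOM(aa) was 4.91, 5.98 and 7.33. In embryos 9 to 14 it was 4.58, 4.76 and 4.90 in GM501 and 4.56, 4.65 and 4.96 in SAGE 1-step, and only 1 of these 12 half-embryos was above its array's detection level. The Trib3 values of embryos 9 to 14 therefore give only an upper limit for most half-embryos. In embryos 15 to 18 it was 5.74, 5.37, 5.81 and 6.43 in GM501 and 5.84, 4.98, 4.69 and 6.32 in SAGE 1-step, above detection in 7 of 8. Trib3 was lower than in KSOM(aa) by 0.80 in GM501 (-0.80, SE 0.25, limma adjusted p = 0.0444) and by 0.96 in SAGE 1-step (-0.96, SE 0.25, adjusted p = 0.0139). With embryos 15 to 18 alone the differences were -0.14 (adjusted p = 0.838) and -0.52 (adjusted p = 0.536). Of the 12 half-embryos of embryos 9 to 14, 10 lay below all of KSOM(aa), whereas 1 of 8 did so in embryos 15 to 18.

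Phgdh and Psat1 encode successive enzymes of serine synthesis from a glycolytic intermediate. Phgdh was 10.23, 11.64 and 12.47 in KSOM(aa). In embryos 9 to 14 it was 8.63, 10.05 and 10.50 in GM501 and 9.66, 10.34 and 10.52 in SAGE 1-step, so that 5 of these 12 half-embryos lay below all of KSOM(aa). In embryos 15 to 18 Phgdh was 11.28, 11.14, 11.24 and 12.43 in GM501, all within the KSOM(aa) range. In SAGE 1-step it was 11.40, 9.78, 11.79 and 11.42, with sister 16b below that range. Phgdh was lower in GM501 (-1.04, SE 0.33, limma adjusted p = 0.0430) and its difference in SAGE 1-step did not pass (-0.90, adjusted p = 0.0713). Without embryos 9 to 14 the differences were 0.05 (adjusted p = 0.939) and -0.37 (adjusted p = 0.670).

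Psat1 was 9.25, 11.34 and 12.43 in KSOM(aa). It was 8.67, 9.74 and 10.68 in the 6 GM501 half-embryos of embryos 9 to 14, and 8.80, 10.48 and 11.09 in their SAGE 1-step sisters. In embryos 15 to 18 Psat1 was 12.37, 10.54, 11.60 and 11.48 in GM501 and 12.53, 10.97, 11.85 and 12.01 in SAGE 1-step. These values overlapped KSOM(aa), and 15b was above all of it. Over all embryos the difference of Psat1 passed in neither medium (GM501: -0.92, adjusted p = 0.136, SAGE 1-step: -0.48, adjusted p = 0.427, limma). By set the Psat1 difference was -1.63 and -1.11 with embryos 9 to 14 alone, but 0.13 and 0.48 with embryos 15 to 18 alone (adjusted p = 0.867 and 0.647), in GM501 and SAGE 1-step.

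Asns makes asparagine from aspartate and glutamine and is a standard readout of the response. It was 9.65, 13.64 and 14.60 in KSOM(aa), 12.38, 13.19 and 14.33 in GM501 and 12.50, 13.87 and 14.27 in SAGE 1-step. The groups overlapped over nearly their whole range, except for half-embryo 2a at 9.65. The difference from KSOM(aa) was -0.14 in GM501 (adjusted p = 0.812) and 0.15 in SAGE 1-step by limma. Without half-embryo 2a, a choice made after the data were seen, the differences of Asns were -0.40 and -0.10. By set, GM501 gave -0.52 with embryos 9 to 14 and 0.43 with embryos 15 to 18 (adjusted p = 0.294 and 0.629), and SAGE 1-step gave 0.12 and 0.21 (adjusted p = 0.833 and 0.887).

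Of the factors, Atf4 was 11.70, 12.19 and 12.83 in KSOM(aa). In embryos 9 to 14 it was 10.75, 11.08 and 11.70 in GM501 and 10.03, 11.61 and 11.94 in SAGE 1-step, and 8 of these 12 half-embryos lay below all of KSOM(aa). In embryos 15 to 18 it was 12.07, 11.99, 12.35 and 12.87 in GM501 and 12.03, 11.92, 11.91 and 12.34 in SAGE 1-step, none of them below KSOM(aa). Over all embryos the difference did not pass by limma (GM501: -0.56, adjusted p = 0.0970, SAGE 1-step: -0.54, adjusted p = 0.101). With embryos 15 to 18 alone the Atf4 differences were 0.13 (adjusted p = 0.682) and -0.14 (adjusted p = 0.765).

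Ddit3 encodes CHOP, a factor that partners C/EBP proteins in prolonged stress. Its signal was 11.44, 12.50 and 14.63 in KSOM(aa), 10.56, 12.55 and 13.43 in GM501 and 9.41, 13.07 and 14.23 in SAGE 1-step. The ranges overlapped and neither difference passed by limma (GM501: -0.50, adjusted p = 0.483, SAGE 1-step: -0.06). By set, GM501 gave -0.39 with embryos 9 to 14 and -0.68 with embryos 15 to 18 (adjusted p = 0.492 and 0.531), and SAGE 1-step gave 0.34 and -0.66 (adjusted p = 0.551 and 0.669). The brightest Ddit3 cluster has 30 probes and no position in the array annotation. A second one with 70 probes, at chr10:127290774-127296288 on mm10, followed it with r = 0.96 over the 36 arrays. Atf3, a repressor of the same family, differed by 0.07 in GM501 and by -0.08 in SAGE 1-step, with signals near the detection level.

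Chac1, which degrades glutathione, was 5.52, 6.23 and 9.95 in KSOM(aa), 5.97, 6.38 and 8.81 in GM501 and 4.30, 6.25 and 8.59 in SAGE 1-step. In GM501 the 4 half-embryos of embryos 15 to 18 (7.12, 7.22, 8.81 and 8.61) all lay above the 6 of embryos 9 to 14, which were between 5.97 and 6.48. In SAGE 1-step the sets overlapped, with 7.10, 5.77, 4.30 and 7.69 in embryos 15 to 18 and 6.08 to 8.59 in embryos 9 to 14. The differences from KSOM(aa) over all embryos were 0.10 (adjusted p = 0.905) and -0.29 by limma. In GM501 the first of these joins opposite values, -0.60 with embryos 9 to 14 and 1.16 with embryos 15 to 18, neither of which passed (adjusted p = 0.314 and 0.336). In SAGE 1-step the values were -0.11 and -0.56 (adjusted p = 0.870 and 0.746).

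Vldlr, the very low density lipoprotein receptor gene, ran the other way. It was 5.13, 5.40 and 5.77 in KSOM(aa), 5.30, 6.10 and 6.68 in GM501 and 5.28, 5.62 and 6.41 in SAGE 1-step. Vldlr was above detection in 36 of 36 arrays, but many of its signals lay close to the detection level. That level was 4.77 to 5.17 in KSOM(aa), 4.95 to 5.49 in embryos 9 to 14 and 4.55 to 5.30 in embryos 15 to 18. Above all 16 KSOM(aa) half-embryos lay 6 of 12 half-embryos of embryos 9 to 14 and 4 of 8 of embryos 15 to 18. Vldlr was higher in GM501 (0.54, SE 0.13, limma adjusted p = 0.00837), and its difference in SAGE 1-step did not pass (0.34, adjusted p = 0.0889). The GM501 call was lost under quantile normalization (0.38, adjusted p = 0.0814) and under centring of the arrays (0.41, adjusted p = 0.0795). In GM501 the difference was 0.47 (adjusted p = 0.00826) with embryos 9 to 14 alone and 0.64 (adjusted p = 0.0396) with embryos 15 to 18 alone. It was the only member called with embryos 15 to 18 alone, where 0.314% of all clusters were called higher and 0.376% lower in GM501. In SAGE 1-step 0 of 10 members were called with these embryos by limma, and 0 at an unadjusted p under 0.05, where 0.251% of all clusters were called higher and 0.481% lower.

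With embryos 9 to 14 alone, 6 members were called in each medium, 1 higher and 5 lower. Of all clusters, 42.6% were higher and 9.40% lower in GM501, and 37.9% and 8.60% in SAGE 1-step. The shares among bright clusters, which were larger on the lower side in the other comparisons, were not computed for this subset. The members were Vldlr on the higher side, and Sesn2, Phgdh, Psat1, Trib3 and Atf4 on the lower side. Their log2 differences were -2.10, -1.77, -1.63, -1.25 and -1.03 in GM501 and -1.85, -1.26, -1.11, -1.25 and -0.81 in SAGE 1-step. Those of Trib3 are bounds, because 11 of its 12 values were below detection.

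**Figure D2:**
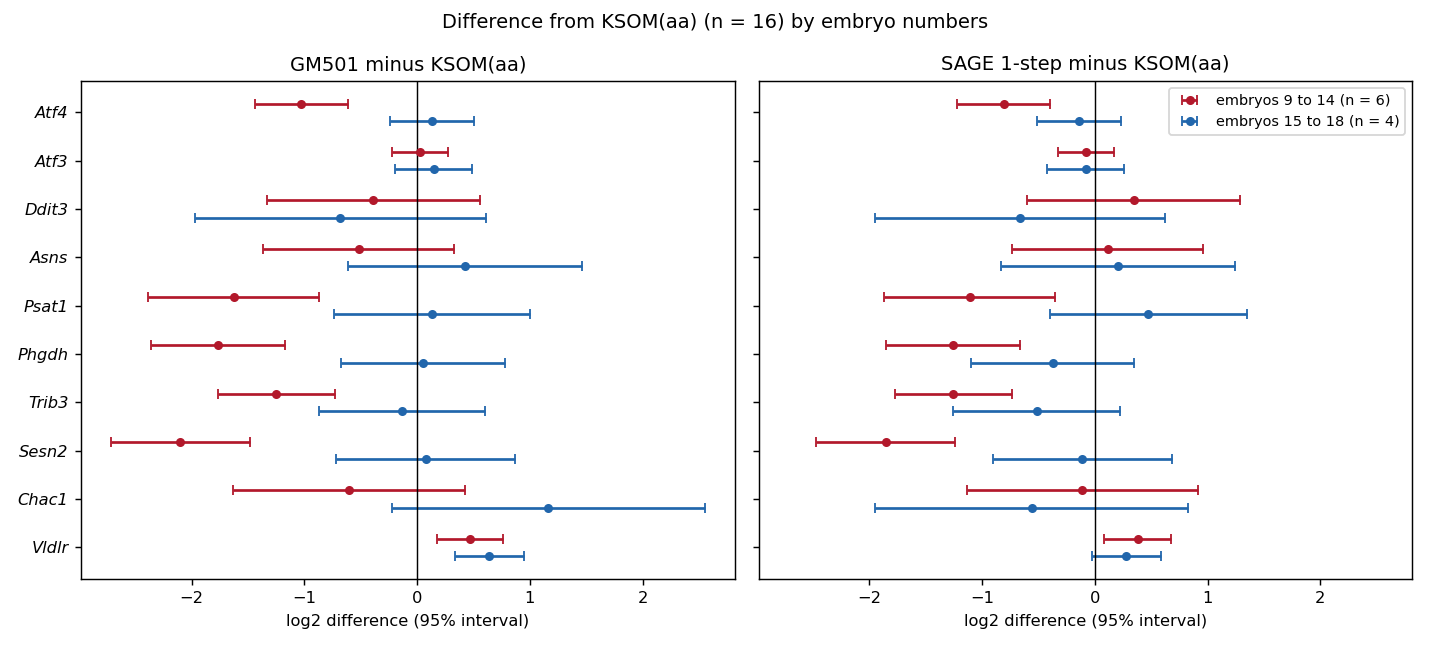
Log2 difference from the 16 KSOM(aa) half-embryos (x axis) for each member (y axis) in GM501 and SAGE 1-step, given apart for embryos 9 to 14 (n = 6 a medium) and 15 to 18 (n = 4 a medium). Points are the fitted differences and lines their 95% intervals. For Sesn2, Phgdh, Psat1, Trib3 and Atf4 the whole interval lies below 0 in both media for embryos 9 to 14 and includes 0 for embryos 15 to 18. For Vldlr it lies above 0 except in SAGE 1-step with embryos 15 to 18.

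The embryo sets were compared directly over embryo means, 6 embryos against 4, with both sisters averaged. In embryos 9 to 14, 5 members were lower than in embryos 15 to 18 and 0 were higher. By the same test 54.9% of all clusters were called, 9.25% lower and 45.6% higher. The share called lower was larger among bright clusters. The members with a mean signal of 9 or more were Atf4, Ddit3, Asns, Psat1 and Phgdh, which are not the same 5 as those called lower. It was 16.0% among the 22770 detected clusters (34.3% higher), and 24.9% among the 6865 detected clusters with a mean signal of 9 or more (32.5% higher). The median log2 difference of the members was -0.79, where that of all clusters was 0.30. The median was 0.25 among detected clusters and 0.12 among detected clusters with a mean signal of 9 or more.

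The lower members were Sesn2 (-1.96, SE 0.22, limma adjusted p = 0.000125), Psat1 (-1.67, SE 0.32, adjusted p = 0.00254), Phgdh (-1.35, SE 0.32, adjusted p = 0.00696), Trib3 (-0.93, SE 0.20, adjusted p = 0.00520) and Atf4 (-0.91, SE 0.25, adjusted p = 0.0127). For Trib3 the size is a bound and its SE is narrowed, because 11 of the 12 half-embryos of embryos 9 to 14 were below detection. For these 5 genes the embryo means of the sets did not overlap, a separation in the lower direction that 5.84% of all clusters showed. The Sesn2 means were 6.83 to 7.50 against 8.66 to 9.70, the widest gap among the 5. The Psat1 means were 9.34 to 10.55 against 10.76 to 12.45. The Phgdh means were 9.15 to 10.41 against 10.46 to 11.93, so that the nearest embryos almost touched. The control genes moved in the same direction, with Rn18s at -1.48, Actb at -1.22 and Gapdh at -0.89, while Hprt was at 0.30 (adjusted p = 0.202). Their part in the members' differences was not tested.

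The other 5 members did not pass between the sets. By limma Asns was at -0.52 (adjusted p = 0.0944) and Chac1 at -0.66 (adjusted p = 0.108). Ddit3 was at 0.65 (adjusted p = 0.133), and its second cluster was at 0.34 (adjusted p = 0.336). Vldlr was at -0.03 and Atf3 at -0.06, and scaling the arrays to Actb, Gapdh and Hprt turned both to higher. The call of Atf4 and Trib3 as lower was also lost under that scaling, where Ddit3 became higher (1.25, adjusted p = 0.00238). Among SAGE 1-step half-embryos alone, 2 of the 10 members were called lower. The number of all clusters called in that setting is given in the last section. It is not split by direction, so this count is not read as a result about the members.

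GM501 and SAGE 1-step held sisters of the same embryos. In the fit over all 36 arrays, which has no embryo term, 0 of 10 members differed by limma, and 0 of 40160 clusters (0.00%). At an unadjusted p under 0.05, 0 members and 1.52% of all clusters differed. With the embryo as a block, which compares sisters within embryos, 0 of 10 members passed, also at an unadjusted p under 0.05. The 95% intervals of that fit ran from -0.06 to 0.36 for Atf3, the narrowest, and from -1.64 to 0.75 for Ddit3, the widest. A difference of a log2 unit lay inside the intervals of Ddit3, Chac1 (-0.64 to 1.43) and Psat1 (-1.04 to 0.14). The sisters of single embryos nevertheless differed by up to 4.51.

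The sign of the sister difference was not the same in both embryo sets for some members. In embryos 15 to 18 Atf4, Asns and Chac1 were higher in the GM501 sister in 4 of 4 pairs, whereas in embryos 9 to 14 Atf4 and Asns were higher in the SAGE 1-step sister in 5 of 6 pairs and Chac1 in 4 of 6. Psat1 was higher in the SAGE 1-step sister in both sets, in 4 of 4 and 4 of 6 pairs. The difference of the medium effect between the sets passed for 0 of 10 members and 0.00% of all clusters by limma (at an unadjusted p under 0.05, 2 members and 6.91% of clusters). The members nearest to passing were Chac1 (-2.22, SE 0.81, p = 0.0192, adjusted p = 0.703) and Asns (-0.85, p = 0.0243, adjusted p = 0.703).

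The largest sister gaps lay in Chac1, Asns and Ddit3. Chac1 was 8.81 in half-embryo 17a and 4.30 in 17b, and in KSOM(aa) 9.95 in 3a and 6.20 in 3b. Asns was 9.65 in 2a and 13.55 in 2b, both in KSOM(aa). Ddit3 was 12.75 in 17a and 9.41 in 17b, and 10.83 in 9a and 13.90 in 9b. Each of these gaps was above the median gap of its own kind of pair. Over the 10 pairs with sisters in GM501 and SAGE 1-step, that median was 1.58 for Ddit3 and 0.37 for Chac1. Within KSOM(aa) the median absolute gap between sisters, over 8 pairs, was 1.21 for Chac1, 0.65 for Psat1, 0.54 for Ddit3, 0.51 for Sesn2, 0.45 for Asns, 0.40 for Trib3, 0.36 for Phgdh, 0.20 for Atf4 and 0.11 for Vldlr. Sisters in the same medium thus differed least in Vldlr, whose signals lay close to the detection level, and Atf4, and most in Chac1.

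**Figure D3:**
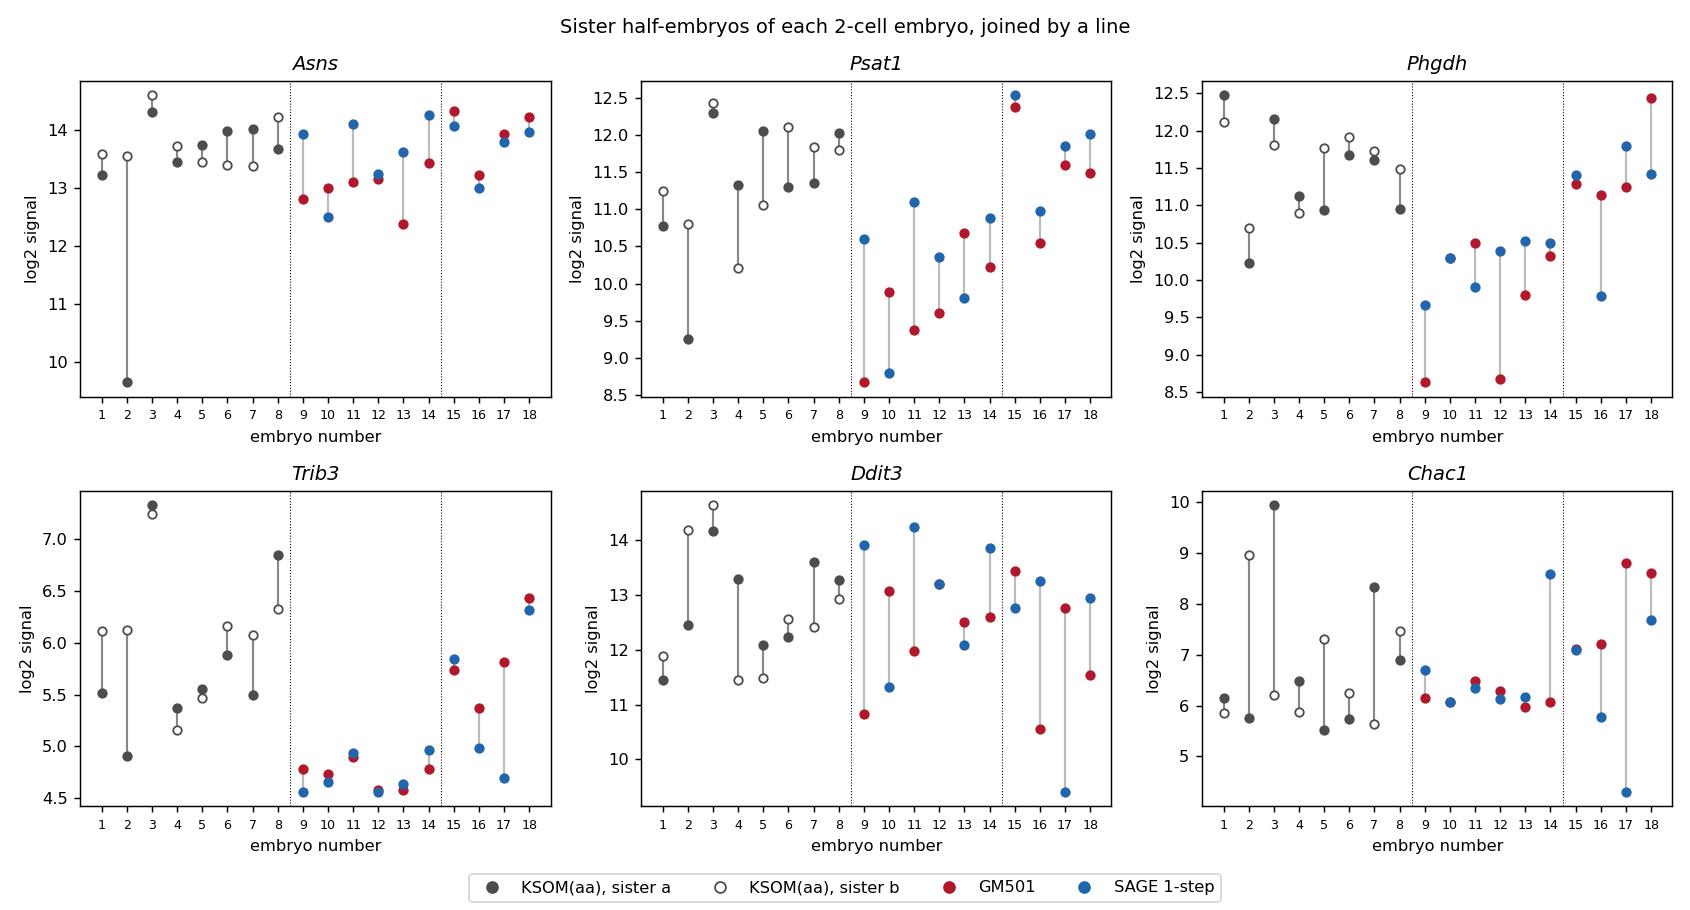
Log2 signal (y axis) of Asns, Psat1, Phgdh, Trib3, Ddit3 and Chac1 in both sisters of each embryo (x axis, embryo number), joined by a line. Embryos 1 to 8 had both sisters in KSOM(aa), and embryos 9 to 18 had 1 sister in GM501 and 1 in SAGE 1-step. Long lines mark embryo 2 for Asns, embryos 3 and 17 for Chac1 and embryos 9 and 17 for Ddit3.

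Within KSOM(aa) the embryo of origin was tested with an F test over 8 embryos, sisters serving as the spread. By limma 0 of 10 members passed, where 0.187% of all clusters did. At an unadjusted p under 0.05, 4 members and 13.0% of all clusters differed. The members were Phgdh (F 6.67, p = 0.00311, adjusted p = 0.183), Trib3 (F 6.60, p = 0.00324, adjusted p = 0.185), Ddit3 (F 3.72, p = 0.0264) and Psat1 (F 3.58, p = 0.0299). Trib3 shows what lies behind such a value. It was 7.33 and 7.24 in the sisters of embryo 3, 6.85 and 6.33 in embryo 8, and 5.37 and 5.16 in embryo 4. Among embryos 9 to 18 the same test was run within the embryo sets, with the set difference and the medium removed. There 0 of 10 members passed, where 0.700% of all clusters did, and Trib3 was nearest (F 3.89, p = 0.0152, adjusted p = 0.327). At an unadjusted p under 0.05, Trib3 alone of the members and 12.2% of all clusters differed there.

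Several members were high or low together in single KSOM(aa) half-embryos. The half-embryos named are the most extreme of 16 in these ranks. How many of all clusters ranked likewise in them was not computed, so a shift of the whole array was not tested. Half-embryo 3b had the highest signal of 16 for Ddit3, Asns and Psat1 and was among the 3 highest for 7 of the 10 members. Its sister 3a had the highest signal for Trib3 and Chac1 and was among the 3 highest for 6 members. At the other end, 2a had the lowest signal for Asns (9.65), Psat1 (9.25), Phgdh (10.23) and Trib3 (4.91). That Trib3 value was below the array's detection level of 5.03. In 2a Atf4 was 11.76 and Ddit3 12.44, ranks 15 and 9 of 16 counted from the highest.

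Across the 36 arrays, with the mean of each medium and embryo set removed, 37 of the 45 pairs of members had a correlation above 0, with a median r of 0.30. The points share array, depth of RNA and, for sisters, the embryo, so these values describe the arrays and carry no test. The same count and median were not computed for pairs of other genes, so they have no background here. Atf3 and Vldlr stayed at 0.32 or less with every partner, and without them 26 of 28 pairs were above 0. The closest pair was Asns and Psat1 (r = 0.70), followed by Psat1 with Trib3 (0.58), Psat1 with Sesn2 (0.58) and Trib3 with Sesn2 (0.56). Without half-embryo 2a the first of these fell to 0.61, and Asns with Phgdh went from 0.40 to 0.21. Ddit3 and Phgdh ran apart (-0.18), and the lowest value was that of Atf3 with Phgdh (-0.26).

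**Figure D4:**
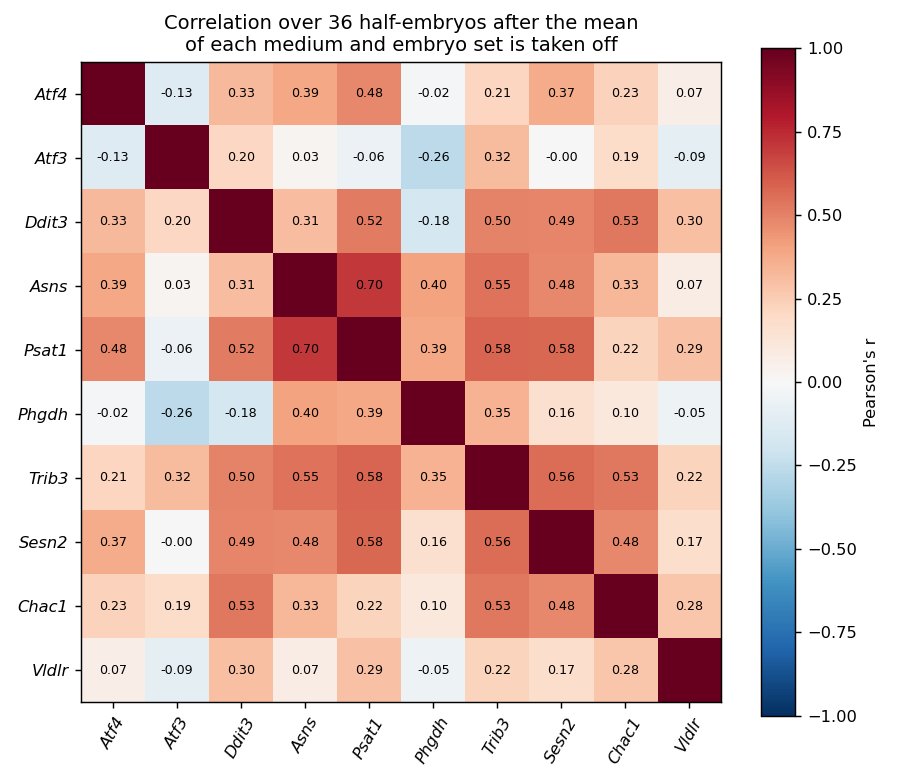
Pearson r between every pair of the 10 members over 36 arrays after removing the mean of each medium and embryo set, with both axes naming the members and colour giving r. The block of Asns, Psat1, Trib3 and Sesn2 is positive throughout, whereas Vldlr and Atf3 stay at 0.32 or less with every partner.

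The 3 genes most like each detected member were taken from 11756 detected genes, by Pearson r on the same values. They were 25 different genes, of which 9 belong to the lists of the pathway used here, lists that hold 74 (0.629%) of the candidates. Asns was followed most closely by Mthfd2 (r = 0.83), a mitochondrial folate enzyme, Nars (0.81), which charges the asparagine transfer RNA, and Eif4ebp1 (0.80), an inhibitor of cap-dependent translation. Psat1 was followed by Gars (0.84), Hspa9 (0.82) and Nars (0.80), and Atf4 by Sars (0.75), the seryl-tRNA synthetase. Trib3 was closest to Pycr1 (0.76), an enzyme of proline synthesis, and Ddit4 (0.68), an mTORC1 inhibitor, which also led for Chac1 (0.63). Sesn2 was closest to Slc7a3 (0.76), a cationic amino acid transporter and was also followed by Shmt2 (0.74). Phgdh was instead closest to Scarb1 (0.78) and Umps (0.74), Ddit3 to Stc2 (0.64), and Vldlr to Reep4 (0.60). Without 2a, 17 of the named genes were again named, and 11 of 27 were in the lists.

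The rest of the pathway was described through lists of genes, measured in full. Between the embryo sets the aminoacyl-tRNA synthetases of the cytosol, which charge transfer RNAs, were lower in 16 of 20 and higher in 0, with a median of -1.24. Those with the smallest adjusted p were Aars (-1.14), Cars (-1.79), Mars (-1.28) and Gars (-1.76). Of 10 amino acid transporters 7 were lower and 1 higher, among them Slc7a5 (-2.87, limma adjusted p = 0.000221), the large neutral amino acid transporter, and its partner Slc3a2 (-1.69). The higher one, Slc7a11 (0.29), was not detected. The median of all clusters was 0.30 and that of bright detected clusters 0.12. The bright clusters, of which 24.9% were called lower, are the nearer background for these lists.

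Synthesis of other amino acids was lower in 9 of 12 genes, including Aldh18a1 (-2.10), Cbs (-1.97, limma adjusted p = 2.74e-05) and the aspartate aminotransferase genes Got1 (-1.77) and Got2 (-1.56). Serine, glycine and one-carbon synthesis was lower in 5 of 8, including Mthfd1 (-2.16) and Shmt2 (-1.65). Its 1 higher gene was Aldh1l2 (0.26), which was not detected. In a list of eIF2alpha kinases, phosphatases and regulators, which also holds genes of translation factor subunits, 9 of 16 genes were lower and 0 higher. These included Gcn1l1 (-1.31, adjusted p = 4.47e-05), whose product helps to activate GCN2, Ppp1r15b (-1.24), a phosphatase subunit, and Eif2b2 (-1.65), a subunit of the exchange factor. Eif2ak4, the gene of GCN2 itself, was at 0.22 and did not pass. Of 11 other bZIP factors and regulators 2 were lower, Ddit4 (means 7.26 and 8.26 in embryos 9 to 14 and 15 to 18) and Jdp2 (-0.44), and of 4 secreted products of the response 0 were called. Chaperones of the endoplasmic reticulum, the neighbouring branch of the stress response, were lower in 7 of 16 and higher in 1, with Hspa5 at -1.11 and Canx at -0.86.

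**Figure D5:**
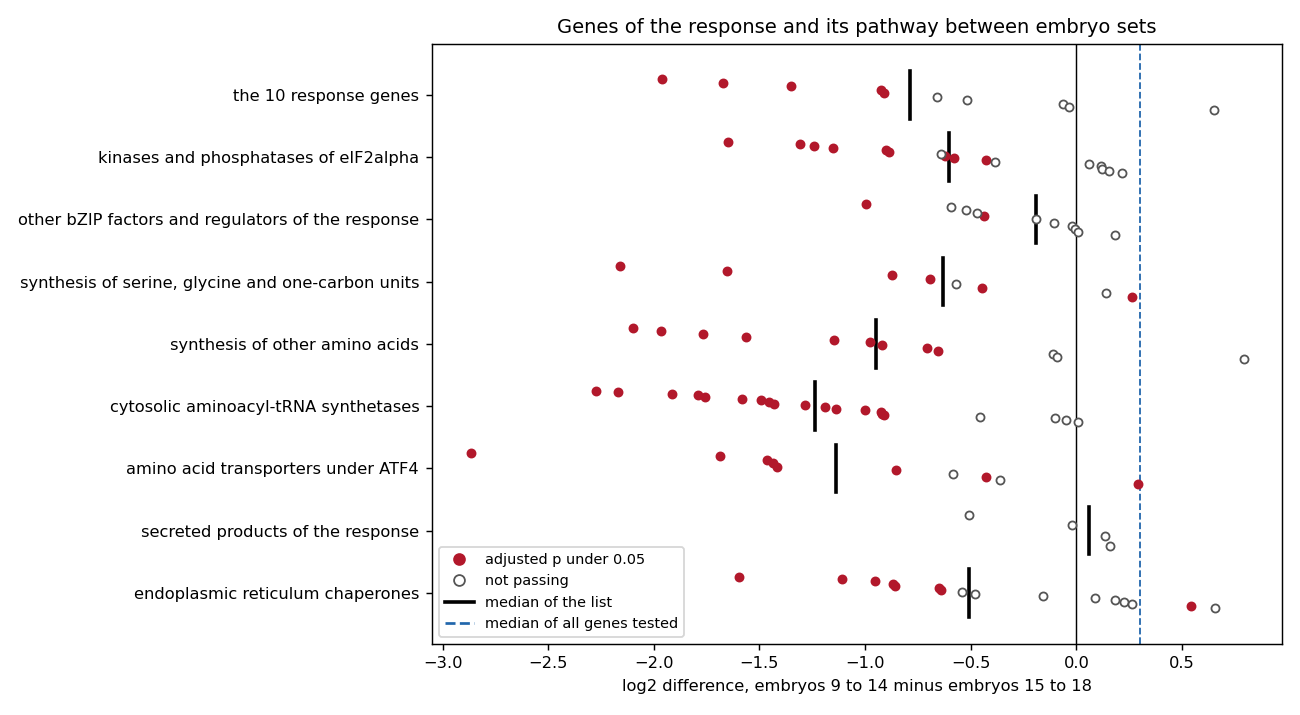
Log2 difference between the means of embryos 9 to 14 and 15 to 18 (x axis) for every gene of each list (y axis), 1 point per gene, filled where the adjusted p was under 0.05. Short bars give the list medians and the dashed line the median of all clusters, 0.30. The synthetases and transporters lie furthest to the left.

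The marker lists between the sets are read against 9.25% of all clusters lower and 45.6% higher. Among detected clusters with a mean signal of 9 or more the shares were 24.9% lower and 32.5% higher. Trophectoderm markers were lower in 4 of 7 and higher in 0, with Krt8 at -1.48. Epiblast markers were lower in 1 (Pou5f1, -1.42) and higher in 1 (Klf2, 0.62), primitive endoderm markers lower in 3 and higher in 2. Cumulus markers were higher in 5 of 7, with a median of 0.31, where that of all clusters was 0.30. The part of these markers in the members' differences was not tested.

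Against KSOM(aa) fewer genes of most lists were called. The shares called lower were 3.60% of all clusters and 10.7% of bright ones in GM501, and 4.42% and 13.4% in SAGE 1-step, so that a count of 1 in a list of 8 to 12 is near the background. In GM501 the synthetases were lower in 7 of 20, led by Kars (-1.19) and Qars (-1.09, limma adjusted p = 0.00126), and in SAGE 1-step in 8 of 20, with Kars at -1.36 and Qars at -1.18 (adjusted p = 0.000444). No synthetase was higher in either medium. Of the transporters Slc3a2 was lower in both (-1.50 and -1.24), and of the eIF2alpha list 5 of 16 were lower in each. In SAGE 1-step Eif2ak4 (0.56, adjusted p = 0.0145) and the kinase gene Eif2ak2 (0.52) were higher. Eif2ak2 was above detection in only 17 of 36 arrays. Its mean in KSOM(aa) was 4.83, where the detection levels were 4.77 to 5.17. Of the genes of other amino acid synthesis 1 was lower in GM501, Glul (-0.78), and 2 in SAGE 1-step. Mthfd1 alone of the serine and one-carbon list was lower, in SAGE 1-step (-1.53). Trophectoderm markers were lower in 4 of 7 in each medium.

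With embryos 15 to 18 alone, 0 of 20 synthetases were called by limma in either medium. The synthetase medians were then 0.18 in GM501 and 0.02 in SAGE 1-step, where the medians of all clusters were -0.11 and -0.06. With embryos 9 to 14 alone, 17 of 20 synthetases were lower than in KSOM(aa) for GM501 and 16 of 20 for SAGE 1-step. Of all clusters 9.40% and 8.60% were lower and 42.6% and 37.9% higher there, and the shares among bright clusters were not computed. Between GM501 and SAGE 1-step 0 genes of any list were called, at an all-cluster share of 0.00%.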

How the data were processed

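Affymetrix mouse transcriptome arrays of 36 single half-embryo blastocysts were used. The authors made the log2 signals with Affymetrix Expression Console (SST-RMA, mm10 annotation), and the deposited values were taken unchanged. The 2 deposited tables held the same values, of which 1 was used. In the deposited column of half-embryo 1a, recorded as score, 1 cluster lay outside any log2 range and was left out, and 25795 of 65956 had no symbol. Differences were fitted with limma 3.58.1 in R 4.3.3 (empirical Bayes with a trend, Benjamini-Hochberg over 40160 clusters, threshold 0.05), tested on simulated data first. Detection needed a signal over the 90th percentile of 1595 receptor clusters in 50% of the arrays of a medium. Members and lists were chosen with earlier results of these data known. Named besides the members were up to 4 genes per list with the smallest adjusted p, up to 3 per marker list, and the 3 most correlated genes per member. Slc7a11, Aldh1l2 and Eif2ak2 were named after their values were seen. Embryo numbers pair sisters per the labels. Correlations of sisters' residuals were 0.011 to 0.399 over the 18 pairs, under 0.1 in some (consensus 0.374). Settings tried were quantile normalization, centring, housekeeping scaling, detection filters, blocks, weights, embryo subsets, leaving out embryos and a plain t-test. Promoters were searched in Python 3.11.15. Signal limits and the number of arrays set the precision, and the depth of an array has no read count.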

Additional observations from a re-analysis of the deposited data

Results flagged for a closer look

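Of 66 groups of 4 to 10 half-embryos examined for a value far from the rest, 6 were marked, and chance marks about 1 in 20 groups. Half-embryo 10b in SAGE 1-step had the lowest Atf4 signal, 10.03 with the next at 11.25, and was marked both among all 10 SAGE 1-step half-embryos and among the 6 of embryos 9 to 14. The same half-embryo had the lowest Sesn2 signal of those 6, 6.59 with the next at 7.30, and the lowest Rn18s signal of all 36, 16.15. Half-embryo 17b had the lowest Ddit3 signal among the 4 SAGE 1-step half-embryos of embryos 15 to 18, 9.41 with the next at 12.76. Half-embryo 18a had the highest Phgdh signal among the 4 GM501 half-embryos of embryos 15 to 18, 12.43 with the next at 11.28. Half-embryo 14b in SAGE 1-step had the highest Chac1 signal of its 6, 8.59 with the next at 6.70.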

How the results depend on the processing

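Against KSOM(aa) 4 members differed in GM501 and 2 did so in SAGE 1-step. These counts were 2 and 1 with all transcript clusters tested, 2 and 1 with the embryo as a random block, 1 and 0 with embryos 15 to 18 alone, 0 and 0 with KSOM(aa) sisters averaged, and 1 and 0 with KSOM(aa) embryos 1 to 5 only (limma, with 1 and 0, 5 and 4, and 5 and 5 at an unadjusted p under 0.05 in the last 3 settings). In SAGE 1-step it was 5 with array weights and 6 with embryos 9 to 14 alone. A plain t-test gave 2 and 4 after adjustment, and 5 and 5 at an unadjusted p under 0.01, where 13.6% and 14.5% of all clusters passed. Under the random block Phgdh (adjusted p = 0.0595) and Trib3 (0.0517) were lost in GM501 and Sesn2 (0.0530) in SAGE 1-step, and no other member's call changed. The fixed block called 0 of 10 members between GM501 and SAGE 1-step, as did the fit without it. Averaging the sisters leaves 8 KSOM(aa) values. Otherwise the cause was not tested.

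Vldlr in GM501 was lost under quantile normalization (0.38, adjusted p = 0.0814) and centring (0.41, adjusted p = 0.0795). Scaling to Actb, Gapdh and Hprt, chosen after seeing the data as were the t-test, leaving out 2a and leaving out embryos 9 to 14 in turn, moved the median of all clusters from 0.09, 0.10 and 0.30 (GM501, SAGE 1-step, embryo sets) to 0.62, 0.69 and 0.91. Under it Trib3 and Phgdh in GM501 and Trib3 and Sesn2 in SAGE 1-step no longer passed. Signs turned in 5 cases where the member was called with or without the setting, and in 36 where it was called in neither. The 5 were Phgdh (0.0525) and Sesn2 (0.0744) in GM501 with embryos 15 to 18 alone, and, under that scaling, Atf3 in SAGE 1-step (0.51) and Atf3 (0.54) and Vldlr (0.57) between the sets. Without 2a Phgdh in SAGE 1-step passed (-0.99, adjusted p = 0.0485).

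Between the sets the count of 5 was 2 with SAGE 1-step half-embryos alone and 5 to 7 leaving out 1 embryo. Without embryo 14 Asns (-0.63) and Chac1 (-0.84) were added, without 15 Ddit3 (0.99), without 16 Asns (-0.75). Under quantile normalization and centring it was 6, with Atf3 added as lower (-0.39 and -0.40). The share of all calls that were higher, 53.1%, 53.8% and 83.2%, became 40.1%, 41.1% and 46.5% under quantile normalization, 27.6%, 26.3% and 28.9% under centring, and 98.4%, 98.5% and 96.3% under the scaling to control genes. All clusters called in GM501, 3076, became 277 (embryos 15 to 18), 591 (sisters averaged), 834 (KSOM(aa) embryos 1 to 5), 8142 (weights), 20901 (embryos 9 to 14) and 31777 (control-gene scaling). In SAGE 1-step 3836 became 294, 743, 1117, 13070, 18672 and 33859 in that order. Between the sets 22036 became 9003 (quantile normalization), 8571 (centring), 33920 (control-gene scaling), 11149 (detected clusters), 5981 (SAGE 1-step only), 13651 (without embryo 17) and 13535 (without embryo 18).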
